A study of Mus musculus with 12 samples.

Results

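Toll-like receptors are the innate immune receptors that recognise microbial lipids, proteins and nucleic acids, and 8 of them were described here together with Cd14, a lipid-binding co-receptor, and Unc93b1, the chaperone that carries nucleic acid-sensing receptors from the endoplasmic reticulum to endosomes. The 10 genes (Tlr1, Tlr2, Tlr3, Tlr4, Tlr6, Tlr7, Tlr9, Tlr13, Cd14 and Unc93b1) were taken by symbol from the 40847 gene rows of the deposited count table and are called members below; all 10 passed the filter on low counts that left 14749 genes for testing. RNA came from fetal liver alveolar-like macrophages (FLAMs), self-renewing cells grown from mouse fetal liver as a culture model of the macrophages of the lung airspace. All cells were kept in 30 ng/ml of mouse GM-CSF, and the 12 libraries formed 4 groups of 3: untreated cells, cells cultured with 20 ng/ml of recombinant human TGFβ1 (TGFβ), cells given 25 ng/ml of Pam3CSK4 for 18 h (Pam3), and cells that had both (Pam3+TGFβ). Pam3CSK4 is a synthetic triacylated lipopeptide and a TLR2 ligand. The labels name neither the mice nor separate cultures behind the libraries, so p-values measure the spread between these libraries, which may be technical.

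Of the receptors, TLR1, TLR2, TLR4 and TLR6 act at the cell surface, where TLR2 pairs with TLR1 to bind triacylated lipopeptides or with TLR6 to bind diacylated ones, and TLR4 binds lipopolysaccharide with the help of CD14. TLR3, TLR7, TLR9 and TLR13 act in endosomes, where they read double-stranded RNA, single-stranded RNA, unmethylated CpG DNA and bacterial ribosomal RNA, and they depend on UNC93B1 to get there. All of these receptors signal through MyD88 except TLR3, which uses TRIF, and TLR4 uses TRIF as well as MyD88. Alveolar macrophages live under constant GM-CSF and TGFβ signals and meet inhaled bacteria and viruses through these receptors.

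Totals per library ran from 34036650 to 44374115 counts, so that even the lowest member count was 24, for Tlr1 in 1 TGFβ library. A set of 7 rows was chosen after their values were seen to differ between replicates. It includes the mitochondrial ribosomal RNAs mt-Rnr1 and mt-Rnr2 and rows known to collect ribosomal RNA reads (AY036118, Mir6236 and Lars2). The rest are rows with LOC symbols, counted below in the ribosomal share. The 7 rows held between 0.195% and 8.21% of the counts. Apart from the others stood 5 libraries with 5.0% or more: untreated 3, TGFβ 1 and 3, and Pam3 2 and 3. No Pam3+TGFβ library was among them (0.392% to 1.63%), so the fits were repeated without the 5, and members whose call changed there are given both ways; the ratios within libraries were not tested again. The macrophage markers Lyz2, Csf1r, Cd68, Adgre1, Mertk and Fcgr1 were present in all groups. The alveolar macrophage markers did not move as a group, with mean levels in untreated and TGFβ cells of 32.1 and 300.4 CPM (read counts scaled to a common library size) for Siglecf, 117 and 225 for Pparg, 2147 and 123 for Marco and 31.1 and 0.132 for Fabp4. Of the other cell types, Mpo, Retnlg, Cd3e, Nkg7, Ncr1 and Ttr had no count in any library, and the dendritic cell genes Flt3 and Siglech had at most 1 and 2 counts. Other genes of these lists were detected, with up to 637 counts for S100a8, 179 for Zbtb46, 46 for the mast cell gene Cpa3, 43 for the fibroblast gene Pdgfra, 42 for Gata2 and 26 for Xcr1. Afp, a fetal hepatocyte gene, averaged 5.77 CPM in the untreated group, 5.9 CPM in the TGFβ group, 7.02 CPM in the Pam3 group and 9.27 CPM in the Pam3+TGFβ group.

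TGFβ without Pam3 lowered 9 of the 10 members, Tlr3 being the exception, and raised none (edgeR quasi-likelihood test, Benjamini-Hochberg adjusted p under 0.05, the rule for every call below). Of all genes tested, 51.0% were called in that comparison, 22.9% higher and 28.1% lower. Pam3 without TGFβ raised 5 members (Tlr1, Tlr2, Cd14, Tlr3 and Tlr7) and lowered none, against 18.3% of all genes called, 9.62% higher and 8.66% lower. Pam3 with TGFβ also raised 5 and lowered none (Tlr2, Cd14, Tlr3, Tlr7 and Unc93b1), against 38.5% of all genes called and 20.4% higher, or 16.8% higher and 23.7% lower under upper-quartile scaling. TGFβ in the presence of Pam3 changed all 10, with Tlr2, Cd14 and Tlr3 higher and the other 7 lower, against 45.3% of all genes called, 21.5% higher and 23.8% lower. The 5 genes raised by Pam3 with TGFβ also had a positive interaction, that is, a larger Pam3 response with TGFβ than without it. Of all genes, 15.9% were called in the interaction, 10.3% positive and 5.67% negative, or 8.51% and 7.44% under upper-quartile scaling. Without the 5 libraries of high ribosomal share, the members called numbered 4 for Pam3 without TGFβ (7.52% of all genes fitted there), 6 for Pam3 with TGFβ (21.6%), 10 for TGFβ alone (32.9%), 9 for TGFβ with Pam3 (29.5%) and 3 in the interaction (5.14%). These comparisons share libraries, so their counts are not independent of each other.

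**Figure D1:**
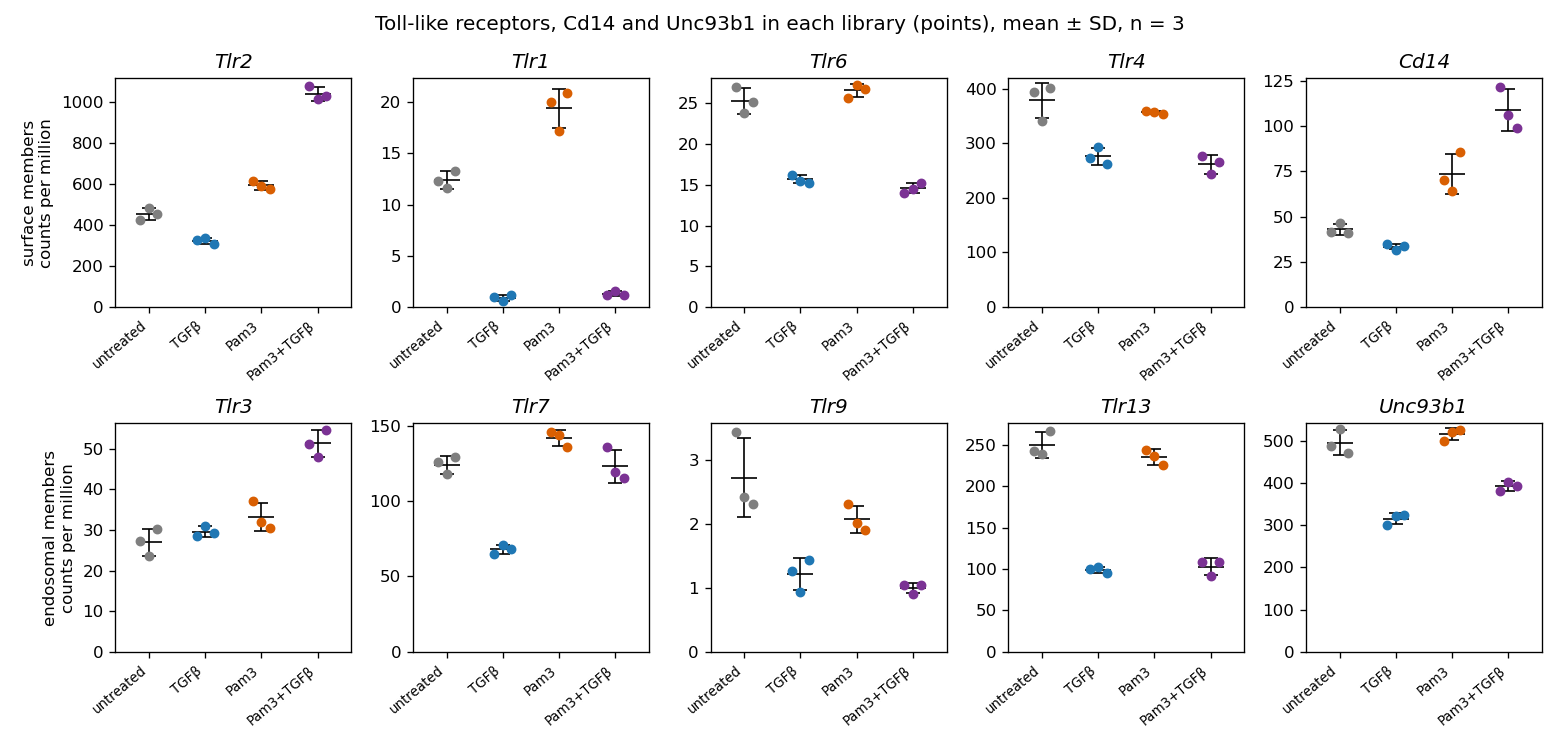
Normalised level of each member in every library (y axes, CPM, each panel on its own scale from 0) in the 4 groups (x axes), with points for the 3 libraries of a group and lines for the group means. Tlr1 fell from between 11.6 and 13.3 CPM in untreated cells to at most 1.13 CPM with TGFβ, while Tlr2 reached its highest levels, 1016 to 1079 CPM, with both agents.

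Tlr2, the receptor for the added lipopeptide (chr3:83743576-83749074 on GRCm39, minus strand, 3 exons), had levels of 427, 483 and 452 CPM in the untreated libraries and 329.7, 335 and 308 CPM with TGFβ. It stood at 618, 589.7 and 575 CPM with Pam3 and at 1079, 1016 and 1032 CPM with both agents. No group overlapped another, and the order of untreated and TGFβ cells was turned round once Pam3 was present. TGFβ changed Tlr2 by -0.49 on the log2 scale without Pam3 (SE 0.054, adjusted p 3.06e-08) and by 0.81 with it (SE 0.054, adjusted p 2.65e-12). The Pam3 response was 0.39 without TGFβ (SE 0.054, adjusted p 6.16e-06) and 1.69 with it (SE 0.055, adjusted p 2.72e-18). Its interaction of 1.3 was the largest among the members (95% interval 1.14 to 1.45).

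The DNA just upstream of Tlr2 and of its partner Tlr1 is shown because these genes, whose products pair, moved differently under TGFβ and Pam3. Each sequence holds the 250 bases before the start of the GENCODE M39 canonical transcript on GRCm39, read 5′ to 3′ along the gene (minus strand for both), with matches to the κB consensus, the NF-κB motif, in capitals; the last bases of the Tlr1 sequence lie in the first exon of another of its transcripts.
Tlr2, chr3:83749075-83749324: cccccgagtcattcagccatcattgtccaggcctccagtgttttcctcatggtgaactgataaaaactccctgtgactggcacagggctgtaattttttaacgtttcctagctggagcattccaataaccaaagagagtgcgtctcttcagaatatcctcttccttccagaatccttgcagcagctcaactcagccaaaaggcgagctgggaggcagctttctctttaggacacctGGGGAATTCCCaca
Tlr1, chr5:65090926-65091175: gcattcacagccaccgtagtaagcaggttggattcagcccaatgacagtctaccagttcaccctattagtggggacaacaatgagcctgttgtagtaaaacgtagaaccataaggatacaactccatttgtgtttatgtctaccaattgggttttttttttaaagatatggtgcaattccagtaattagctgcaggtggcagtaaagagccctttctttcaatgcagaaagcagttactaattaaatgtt
The Tlr2 sequence held 2 overlapping κB matches, which began 14 and 13 bases before this transcript start, and the Tlr1 sequence held none. Among the other members, Tlr3 had 1 κB match, 204 bases before its start, and the remaining 7 had none. Windows of the same length before 19296 genes held a κB match in 8.03% of cases. Among the other motifs searched on both strands, AP-1 (TGANTCA, in 5.97% of windows) matched at 2 places in Cd14 and 1 in Tlr9, PU.1 (GAGGAAG, in 10.5%) matched once each in Tlr9 and Tlr13, and the interferon-stimulated response element (in 3.25%) matched in none of the 10. A narrower κB form searched first (in 1.33%) matched only in Tlr3, and the wider consensus was added after that result was seen. These are matches of letters, and no binding was measured. The positions hold for the GENCODE starts: the 1 window that RefSeq lists for Tlr2 does not share the middle of the sequence shown here, whereas 1 for Tlr1 does.

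Tlr1, the partner of TLR2 for triacylated lipopeptides such as Pam3CSK4 (chr5:65082022-65090941, minus strand, 4 exons), fell further with TGFβ than any other member. Its levels were 12.3, 11.6 and 13.3 CPM in untreated cells and 0.996, 0.593 and 1.13 CPM with TGFβ, from 466 to 483 counts and 24 to 43 counts. With Pam3 they were 20.0, 17.2 and 20.9 CPM, and with both agents 1.19, 1.55 and 1.17 CPM. Every library with TGFβ was below every library without it. The TGFβ effect was 13.8-fold lower without Pam3 (log2 fold change -3.78, SE 0.17, adjusted p 5.68e-16) and 14.8-fold lower with it (log2 fold change -3.89, SE 0.16, adjusted p 9.44e-17). In bulk RNA of this kind, fewer cells expressing a gene and less RNA per cell cannot be told apart.

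Pam3 raised Tlr1 1.56-fold in cells without TGFβ (log2 fold change 0.64, SE 0.12, adjusted p 0.000358). With TGFβ the value was 0.53 (SE 0.21), its adjusted p of 0.0516 missed the threshold, and the lowest Pam3+TGFβ library lay above the highest TGFβ library. That value passed with DESeq2 (adjusted p 0.0424; 0.0304 to 0.241 over the planned settings that kept all libraries of both groups) and was 1.12 without the 5 libraries of high ribosomal share (adjusted p 0.0156), where 1 TGFβ library was left; leaving out single libraries gave 0.28 to 0.71 (adjusted p 0.0242 to 0.348). The Tlr1 interaction was -0.11 (95% interval -0.63 to 0.41, adjusted p 0.846), and 0.38 without the 5 libraries (adjusted p 0.702).

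Tlr6, the partner for diacylated lipopeptides (chr5:65108704-65203497, minus strand, 2 exons in the canonical transcript), lies 17762 bases from Tlr1 and fell much less. Its levels were 27.0, 23.8 and 25.2 CPM in the untreated libraries and 16.2, 15.5 and 15.2 CPM under TGFβ, and they were 25.7, 27.3 and 26.8 CPM under Pam3 and 14, 14.5 and 15.2 CPM under both agents. The libraries with and without TGFβ did not overlap, whereas those with and without Pam3 did. TGFβ lowered Tlr6 1.62-fold without Pam3 (log2 fold change -0.69, SE 0.079, adjusted p 4.21e-08) and 1.82-fold with it (log2 fold change -0.87, SE 0.079, adjusted p 1.04e-09). The Pam3 response was 0.07 without TGFβ (95% interval -0.088 to 0.23, adjusted p 0.61) and -0.10 with it (95% interval -0.27 to 0.063, adjusted p 0.345).

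The partners share part of their sequence: 259 of the 3418 stretches of 100 bases in Tlr1 transcripts, 7.58%, also occur in Tlr6. No other pair among the 12 mouse Toll-like receptor genes shares such a stretch. Read length was unclear, because the labels give 150-base reads and a kit of 100 cycles. How reads that match both genes were counted is not given in the sources used here, so part of the few Tlr1 counts left with TGFβ could belong to Tlr6, and this was not tested. The ratio of both genes within each library, in counts per exon length, was 0.656, 0.703 and 0.757 in untreated cells and 0.0883, 0.0548 and 0.106 with TGFβ. It was 1.12, 0.908 and 1.12 with Pam3 and 0.123, 0.154 and 0.111 with both. The 6 libraries with TGFβ all lay below the 6 without it, by 8.46-fold on average. Across the libraries the TGFβ effect on this ratio was -3.08 log2 units (-3.13 without Pam3 and -3.03 with it; exact two-sided permutation test within Pam3 strata, p 0.005, the smallest that its 400 assignments allow, and 0.0075 adjusted over the 6 ratio tests). The Pam3 effect was 0.62 log2 units (0.57 without TGFβ and 0.67 with it; exact permutation p 0.005, adjusted 0.0075).

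The Tlr2 to Tlr1 ratio per length was 22.6 ± 2.59 in the untreated libraries (SD, n = 3) and 239.6 ± 95 under TGFβ, and it was 19.0 ± 2.05 under Pam3 and 499.6 ± 84.7 under both agents. TGFβ raised it 16.3-fold over both Pam3 states (exact permutation p 0.005, adjusted 0.0075), whereas the Pam3 effect of 0.43 log2 units differed in sign between cells without TGFβ (-0.25) and with it (1.12) and did not pass (exact permutation p 0.195, adjusted 0.195). The untreated and TGFβ libraries overlapped in the Tlr2 to Tlr6 ratio, which was 15.9 ± 2.0, 18.3 ± 0.653, 19.8 ± 1.28 and 63.3 ± 4.32 in the same order of groups. On that ratio TGFβ had an effect of 0.94 log2 units (0.21 without Pam3 and 1.68 with it; exact permutation p 0.01, adjusted 0.012) and Pam3 one of 1.05 (0.32 without TGFβ and 1.79 with it; exact permutation p 0.005, adjusted 0.0075). The size of each ratio, that of Tlr1 to Tlr6 included, depends on the exon lengths used, but its change between groups does not. These are RNA ratios, and receptor pairs at the surface were not measured.

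**Figure D2:**
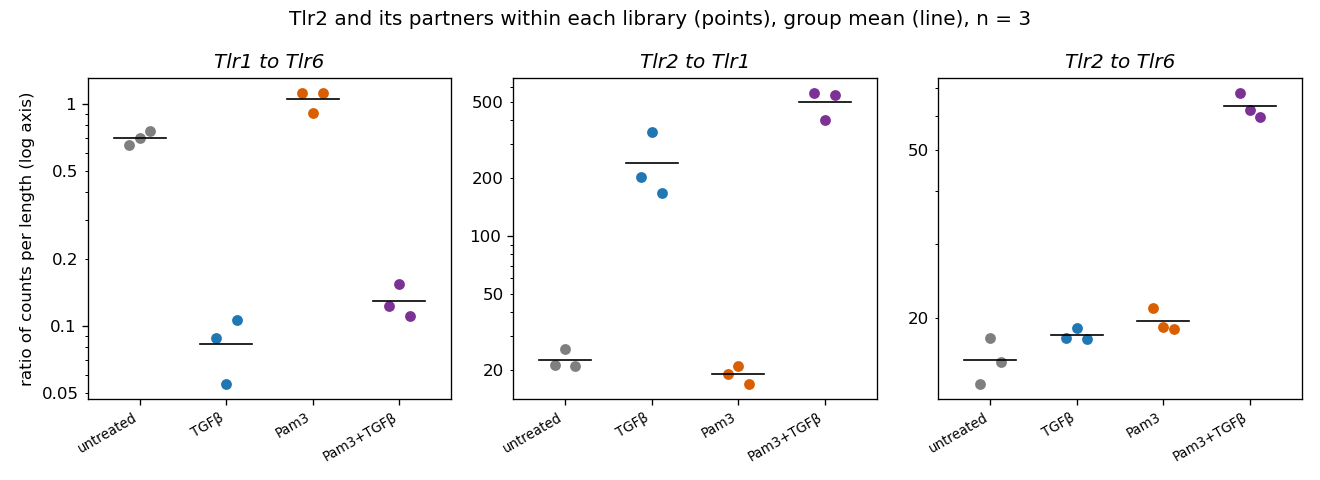
Ratio of counts per exon length between Tlr2 and its partners within each library (y axes, log scale, each panel on its own scale) in the 4 groups (x axes), with points for libraries and lines for group means (n = 3). The Tlr1 to Tlr6 ratio lay between 0.0548 and 0.154 in the TGFβ and Pam3+TGFβ libraries and between 0.656 and 1.12 in the others, and the Tlr2 to Tlr6 ratio was highest with both agents, at 59.8 to 68.2.

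Tlr4, the lipopolysaccharide receptor (chr4:66745783-66849936, plus strand, 3 exons), was lower with TGFβ in both Pam3 states. It stood at 394, 342 and 401 CPM in the untreated libraries and 274, 293 and 262 CPM under TGFβ, and at 359.6, 358 and 354 CPM under Pam3 and 277, 243 and 266 CPM under both agents. The log2 fold change with TGFβ was -0.45 without Pam3 (SE 0.058, adjusted p 4.5e-07) and -0.45 with it (SE 0.058, adjusted p 6.77e-07), and the interaction was 0.0074 (95% interval -0.16 to 0.18). Pam3 gave -0.085 without TGFβ (adjusted p 0.363) and -0.077 with it (adjusted p 0.321), and the first passed on leaving out untreated 2, the lowest of its group (-0.15, adjusted p 0.0356).

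Cd14, the co-receptor that hands lipopolysaccharide and lipopeptides to TLR4 and TLR2 (chr18:36858120-36859851, minus strand, 2 exons), followed the order of groups seen for Tlr2. Its levels were 41.5, 46.3 and 41.0 CPM in untreated cells and 34.6, 31.6 and 33.9 CPM with TGFβ. They were 70.5, 64.3 and 85.9 CPM with Pam3 and 122, 106 and 99.3 CPM with both, with no overlap between groups. The TGFβ effect was -0.36 (log2) without Pam3 (SE 0.095, adjusted p 0.00359) and 0.57 with it (SE 0.092, adjusted p 4.77e-05). The Pam3 response was 0.78 without TGFβ and 1.71 with it (adjusted p 6.96e-06 and 4.25e-11), an interaction of 0.93 (SE 0.13, adjusted p 4.91e-05).

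Among the endosomal genes, Tlr3, the receptor for double-stranded RNA (chr8:45848702-45864117, minus strand, 7 exons), was the member that did not fall with TGFβ. It stood at 27.3, 23.6 and 30.2 CPM in the untreated libraries and 28.5, 31.1 and 29.3 CPM under TGFβ, and at 37.1, 32.1 and 30.5 CPM under Pam3 and 51.3, 48.1 and 54.7 CPM under both agents. The Pam3+TGFβ libraries lay above all others, while the untreated and TGFβ libraries overlapped. The Pam3 response was 0.30 without TGFβ (SE 0.086, adjusted p 0.015) and 0.79 with it (SE 0.085, adjusted p 3.2e-08). The first was 0.55 without the 5 libraries of high ribosomal share (adjusted p 0.0042), and it lost its call on leaving out untreated 2 (adjusted p 0.0792) or Pam3 1 (adjusted p 0.138). TGFβ gave 0.13 without Pam3 (adjusted p 0.208; 0.32 and adjusted p 0.0461 without those libraries, and 0.22 and adjusted p 0.0455 without untreated 3 alone) and 0.63 with it (SE 0.085, adjusted p 1.01e-06). The interaction of 0.49 (SE 0.12, adjusted p 0.00502) was 0.16 there (adjusted p 0.695).

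Tlr7, a receptor for single-stranded RNA (chrX:166086758-166113605, minus strand, 3 exons), was lowest in the TGFβ group alone. Its levels were 126, 118 and 129 CPM in the untreated libraries and 64.9, 70.6 and 68.4 CPM under TGFβ, and they were 146, 144 and 136 CPM under Pam3 and 136, 119 and 115 CPM under both agents. The Pam3+TGFβ libraries covered the untreated range. The TGFβ effect was -0.87 (log2) without Pam3 (SE 0.059, adjusted p 3.34e-12) and -0.20 with it (SE 0.058, adjusted p 0.00569). Pam3 gave 0.19 without TGFβ (adjusted p 0.0202) and 0.86 with it (SE 0.059, adjusted p 6.75e-12), an interaction of 0.67 (SE 0.083, adjusted p 1.27e-06). The value of 0.19 missed the threshold, at 0.16, 0.17 and 0.18, without untreated 2, Pam3 1 or Pam3 2 (adjusted p 0.0631, 0.0972 and 0.0801), and that of -0.20 missed it, at -0.16, without Pam3+TGFβ 3 (adjusted p 0.0638). Both also missed the threshold without the 5 libraries of high ribosomal share, at 0.27 and -0.23 (adjusted p 0.111 and 0.0626).

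Tlr13, the mouse receptor for a stretch of bacterial ribosomal RNA (chrX:105186810-105204533, plus strand, 3 exons), fell with TGFβ in both Pam3 states. It stood at 242, 239 and 267 CPM in the untreated libraries and 100.0, 102 and 95.2 CPM under TGFβ, and at 244, 237 and 225 CPM under Pam3 and 108, 91.5 and 109 CPM under both agents. TGFβ lowered it 2.52-fold without Pam3 (log2 fold change -1.34, SE 0.061, adjusted p 4.9e-15) and 2.28-fold with it (log2 fold change -1.19, SE 0.06, adjusted p 5.46e-14). Libraries with and without Pam3 overlapped, and its responses of -0.088 without TGFβ and 0.059 with it did not pass (adjusted p 0.359 and 0.489).

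Tlr9, the CpG DNA receptor (chr9:106099797-106104082, plus strand, 2 exons), was scarce throughout, with 34 to 131 counts per library. Its levels were 3.45, 2.43 and 2.31 CPM in the untreated libraries and 1.27, 0.938 and 1.44 CPM under TGFβ, and they were 2.31, 2.02 and 1.91 CPM under Pam3 and 1.05, 0.91 and 1.04 CPM under both agents. TGFβ gave -1.16 without Pam3 (SE 0.26, adjusted p 0.000576; -1.28 to -0.94 with single libraries left out, and -1.62 without the 5 of high ribosomal share) and -1.06 with it (SE 0.27, adjusted p 0.00215). At these counts the interval of the interaction was wide (0.11, 95% interval -0.67 to 0.88). The Pam3 responses of -0.39 without TGFβ and -0.28 with it did not pass (adjusted p 0.336 and 0.464). With single libraries left out, these responses were -0.5 to -0.18 and -0.46 to -0.16.

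Unc93b1, the chaperone on which the endosomal receptors depend (chr19:3985167-3999341, plus strand, 11 exons), fell with TGFβ as most of them did. It stood at 488, 528 and 470.1 CPM in the untreated libraries and 299.5, 321 and 323 CPM under TGFβ, and at 499, 520.0 and 526 CPM under Pam3 and 380.3, 403 and 393 CPM under both agents. The TGFβ effect was -0.65 without Pam3 (SE 0.051, adjusted p 3.89e-11) and -0.39 with it (SE 0.05, adjusted p 3.91e-07). Pam3 gave 0.057 without TGFβ (95% interval -0.047 to 0.16) and 0.32 with it (SE 0.05, adjusted p 1.28e-05). The interaction of 0.26 (SE 0.071, adjusted p 0.0116) lost its call without TGFβ 1 (0.20, adjusted p 0.0762) and without the 5 libraries of high ribosomal share (0.30, adjusted p 0.161).

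**Figure D3:**
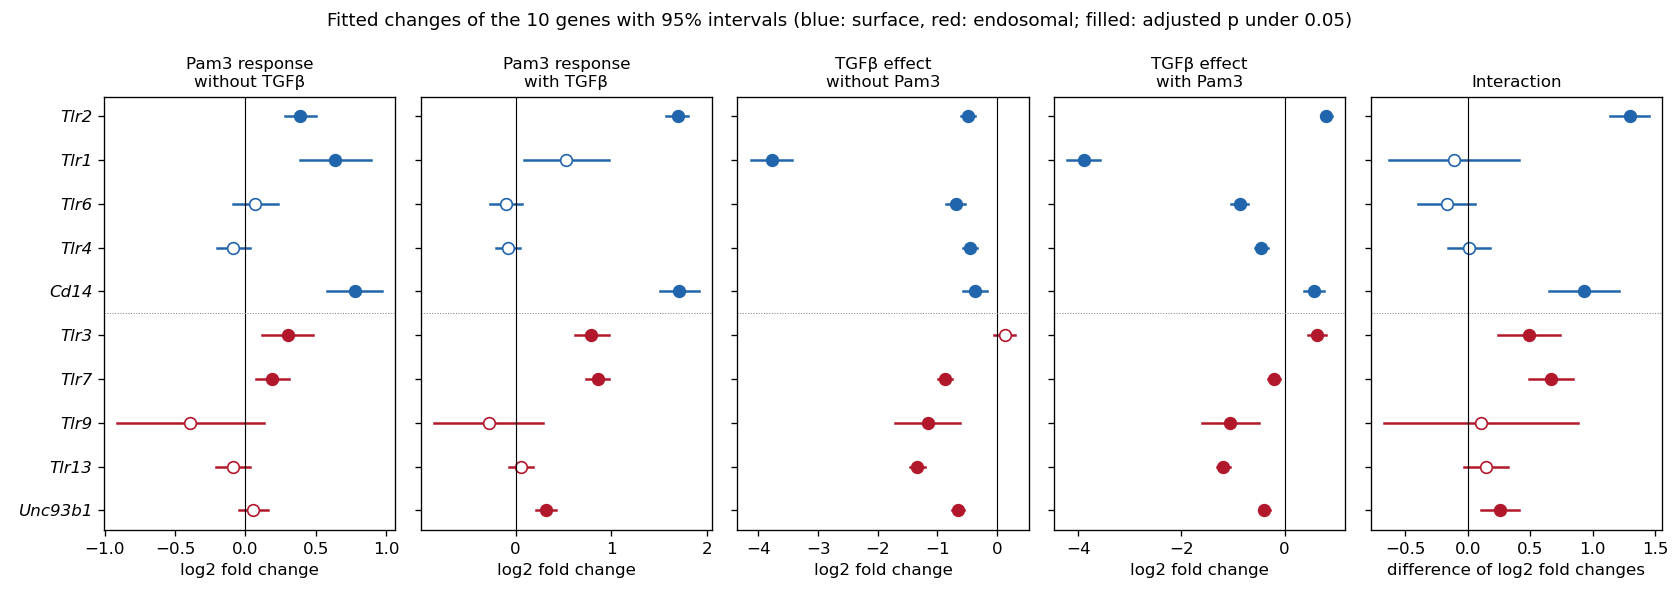
Log2 fold change of each member (x axis) with its 95% interval in the 2 Pam3 responses, the 2 TGFβ effects and their interaction, from the fit over 12 libraries, with surface and endosomal genes in separate colours and filled points for an adjusted p under 0.05. Tlr1 stands alone at the left with TGFβ, at -3.78 and -3.89, and Tlr2 and Cd14 lie furthest right in the interaction, at 1.3 and 0.93.

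Between the surface genes (Tlr1, Tlr2, Tlr4, Tlr6 and Cd14) and the endosomal ones (Tlr3, Tlr7, Tlr9, Tlr13 and Unc93b1), responses overlapped in every comparison. With TGFβ alone the median log2 fold change was -0.49 over the 5 surface genes (from -3.78 for Tlr1 to -0.36 for Cd14) and -0.87 over the 5 endosomal genes (from -1.34 for Tlr13 to 0.13 for Tlr3), with -0.0084 over all genes tested. All 5 surface genes and 4 endosomal genes fell there, against 28.1% of all genes lower and 22.9% higher. For Pam3 without TGFβ the medians were 0.39 and 0.057, and the median over all genes was 0.00037. In that comparison 3 surface and 2 endosomal genes were higher, against 9.62% of all genes higher and 8.66% lower. The endosomal value ranged from 0.019 to 0.11 when single libraries were left out. For Pam3 with TGFβ the medians were 0.53 and 0.32, and -0.019 over all genes, with 2 and 3 genes higher (20.4% of all genes higher, 18.1% lower). The surface value there was that of Tlr1, and it ranged from 0.28 to 0.71 when single TGFβ or Pam3+TGFβ libraries were left out and was 1.12 without the 5 libraries of high ribosomal share. For TGFβ with Pam3 the medians were -0.45 and -0.39, close to each other, and -0.0017 over all genes. Here 2 surface genes were higher and 3 lower, and 1 endosomal gene was higher and 4 lower (21.5% of all genes higher, 23.8% lower). In the interaction the medians were 0.0074 and 0.26, and 0.0045 over all genes. Without the 5 libraries of high ribosomal share the class medians were 0.38 and 0.30, in the opposite order. With all libraries, Tlr2 and Cd14 were called among the surface genes and Tlr3, Tlr7 and Unc93b1 among the endosomal ones (10.3% of all genes positive, 5.67% negative). The classes hold 5 genes each that were chosen by location, and no test of a difference between them was made.

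Levels of different genes were compared per kilobase of exon (CPM per kb). The lengths merge the exons of all transcripts of a gene, and for Tlr2 they cover its whole span of 5499 bases. The order between genes depends on this choice of length, and other lengths were not tried. In untreated cells the order was Tlr2 (82.5), Unc93b1 (79.2), Tlr4 (54.0), Tlr13 (52.7), Cd14 (24.8), Tlr7 (23.4), Tlr6 (5.22), Tlr3 (5.05), Tlr1 (3.67) and Tlr9 (0.784). The libraries of Tlr2 and Unc93b1, of Tlr4 and Tlr13, of Cd14 and Tlr7, and of Tlr6 and Tlr3 overlapped, so those neighbours were not ordered beyond their spread. With TGFβ, Tlr1 (0.268) dropped to the level of Tlr9 (0.35), whose range it overlapped, and the other 8 kept to 3.22 or more without any overlap between neighbours. With Pam3, Tlr2 (108) stood clear of Unc93b1 (82.4), and Tlr3 (6.21), Tlr1 (5.73) and Tlr6 (5.47) overlapped each other in turn. With both agents Tlr2 (189.5) was followed by Cd14 (63.0) and Unc93b1 (62.7), which overlapped, and Tlr1 (0.386) and Tlr9 (0.287) came last. Unc93b1 has the most exons of the 10, and the named aligner, Bowtie2, does not split reads across introns, so its level relative to the receptors may be understated to a degree that was not tested.

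The genes most like each member were ranked by Pearson's r of log2 CPM over the 12 libraries among 11133 genes with at least 10 counts in every library. Because the 12 libraries form 4 groups, these values mainly describe group means, and they carry no test. Nearest to Tlr2 were Bst2 (0.995), Gbp5 (0.995) and Cfb (0.992), and nearest to Tlr1 were Tcp11l1 (0.993), Ahrr (0.992) and Gas7 (0.99). Tlr6 was nearest to Ccr2 (0.992), Pafah2 (0.991) and Mmp8 (0.99), Tlr4 to Golgb1 (0.99), Sptbn1 (0.982) and Dennd4c (0.982), and Cd14 to Rab20 (0.989), Tnip1 (0.986) and Tubb6 (0.984). Tlr3 was nearest to Larp4b (0.981), Nr3c1 (0.98) and Gvin-ps2 (0.98), and Tlr7 to Malt1 (0.993), Trim30c (0.988) and Zeb2 (0.987). For Tlr9 they were Stard8 (0.97), Psd3 (0.968) and Abcc4 (0.968), for Tlr13 Ccng1 (0.996), Maoa (0.994) and Tec (0.994), and for Unc93b1 Cd74 (0.99), Slc2a6 (0.989) and Zyx (0.989). Among the members themselves r was highest for Tlr6 with Tlr13 (0.971), Tlr1 with Tlr6 (0.965), Tlr1 with Tlr13 (0.964) and Tlr2 with Cd14 (0.963), and lowest for Tlr3 with Tlr9 (-0.638).

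Other genes of the pathway were taken from 5 lists with 38 genes, of which 36 were tested. TGFβ without Pam3 lowered 22 of the 36 and raised 9 (28.1% and 22.9% of all genes), and with Pam3 it lowered 17 and raised 10 (23.8% and 21.5%). Pam3 raised 8 and lowered 3 without TGFβ (9.62% and 8.66% of all genes), and raised 17 and lowered 7 with it (20.4% and 18.1%). The interaction was positive for 9 and negative for 1 (10.3% and 5.67%). Without the 5 libraries of high ribosomal share, where 37 of the genes were fitted, Pam3 raised 4 and lowered 1 without TGFβ (4.77% and 2.75% of all genes) and raised 13 and lowered 2 with it (11.7% and 9.91%). TGFβ there lowered 18 and raised 6 without Pam3 (17.5% and 15.4%) and lowered 14 and raised 7 with it (16% and 13.5%), and the interaction was positive for 3 and negative for 1 (3.69% and 1.45%). The other Toll-like receptors differed from each other. Tlr8, a further endosomal RNA receptor, averaged 239 ± 22.6 CPM (SD, n = 3) in the untreated libraries and 287 ± 8.03 CPM in the TGFβ libraries, against 273 ± 10.8 CPM for Pam3 and 258 ± 8.73 CPM for both agents. Its TGFβ effect was 0.26 without Pam3 (SE 0.053, adjusted p 0.000222), opposite in sign to that of Tlr7. Tlr11, an endosomal receptor for profilin, fell from 144, 136 and 125 counts in untreated cells to 18, 10 and 2 with TGFβ (log2 fold change -3.73, SE 0.39, adjusted p 1.25e-08). Tlr5, the flagellin receptor, had no count in the 6 libraries without TGFβ, 10, 18 and 18 counts with TGFβ and 7, 8 and 7 with both agents. Against a floor of 3 counts per library it was at least 5.04-fold higher with TGFβ than in untreated cells and at least 2.28-fold higher with both agents than with Pam3, a floor that covers counting error only.

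All 5 endosomal proteases, which trim endosomal receptors into their signalling form, fell with TGFβ in both Pam3 states. Beside this and the next counts without Pam3 stand 28.1% of all genes lower and 22.9% higher. With Pam3 the shares were 23.8% lower and 21.5% higher. The largest falls without Pam3 were those of Lgmn, from 298 ± 7.1 to 90.8 ± 3.5 CPM (SD, n = 3; log2 fold change -1.71, adjusted p 4.66e-20), Ctsk at -1.68 and Ctsl at -1.37. Of 6 tested surface accessory genes 5 fell and 1 rose. Cd36, a scavenger receptor that assists TLR2, went from 456 ± 13.9 to 51.2 ± 4.05 CPM (log2 fold change -3.15, SE 0.064, adjusted p 9.56e-20), and Cd180, a receptor related to TLR4, from 87.7 ± 4.72 to 13.6 ± 0.536 CPM (-2.69, SE 0.072, adjusted p 1.99e-20), while Sigirr, an inhibitory receptor, changed by -1.02 (adjusted p 0.00836; -0.94 and 0.0994 without the 5 libraries of high ribosomal share). Of the 10 folding and trafficking genes 7 fell and 2 rose. The largest falls there were those of Slc15a4, a lysosomal transporter (-0.73), Sdcbp (-0.55) and Rab7b (-0.37). The 12 adaptors and kinases split evenly, with 4 higher and 4 lower. Sarm1 (1.71, adjusted p 0.0465; 2.15 and 0.119 without those libraries; 0.113 CPM in untreated cells), Irak3, an inhibitory kinase of the pathway (-0.87), and Ticam1, which encodes TRIF (-0.62), changed most.

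In the interaction, Myd88, the shared adaptor, followed the order of groups seen for Tlr2 and Cd14, at 153 ± 6.47 CPM untreated, 113 ± 5.36 CPM under TGFβ, 177 ± 6.39 CPM under Pam3 and 218 ± 4.9 CPM under both agents (SD, n = 3; interaction 0.74, SE 0.068, adjusted p 7.48e-09). Irak3 had an interaction of 0.72 and Traf3, a ubiquitin ligase of the pathway, one of 0.44 (adjusted p 6.23e-07 and 0.000778). Among the trafficking genes, the positive interactions were those of Tasl, an adaptor of endosomal receptors (0.76, adjusted p 0.00115), Ap3b1 (0.30, adjusted p 0.00132) and Tmed7 (0.20, adjusted p 0.0346). Ctsb was the protease with one (0.48, adjusted p 4.09e-05), and Tlr8 had the negative one (-0.34, SE 0.074, adjusted p 0.00214). Without the 5 libraries of high ribosomal share, Myd88 (0.66), Irak3 (0.56), Ctsb (0.44) and Tlr8 (-0.44) were called, and Tasl (0.65), Traf3 (0.38), Ap3b1 (0.21) and Tmed7 (0.07) were not (adjusted p 0.134, 0.138, 0.413 and 0.835).

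**Figure D4:**
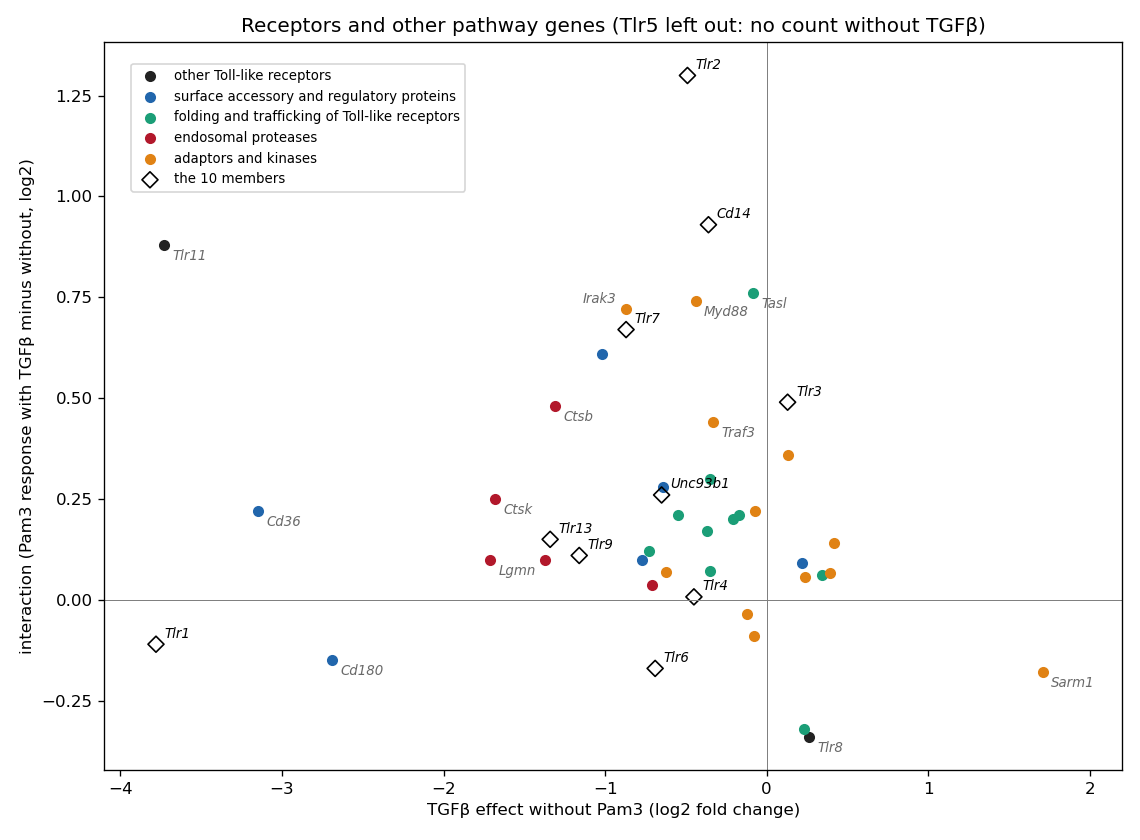
Log2 fold change with TGFβ in the absence of Pam3 (x axis) against the interaction of TGFβ and Pam3 (y axis, log2), for the 10 members (open diamonds) and the other tested pathway genes by list (filled points), without Tlr5. Tlr1, Tlr11, Cd36 and Cd180 lie furthest left, between -3.78 and -2.69, and Tlr2 lies highest, at 1.3.

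Some markers of cell identity moved along with the TGFβ effects, and others did not. The summed level of the 6 macrophage markers was 30626 to 34866 CPM in untreated cells and 16547 to 17459 CPM with TGFβ, mostly Lyz2 (29824 and 15248 CPM), and 33289 to 34355 CPM with Pam3 against 25353 to 26032 CPM with both. Without Pam3, Mertk averaged 223 CPM in untreated cells and 222 CPM with TGFβ, and Fcgr1 81.1 and 91.3 CPM, while Adgre1 averaged 303 and 145 CPM, Cd68 858 and 549 CPM and Csf1r 983 and 820.3 CPM. The 6 neutrophil markers summed to 13.1 to 15.5 CPM in untreated cells and 3.14 to 4.96 CPM with TGFβ. S100a8 made up most of the sum, at 13.8 and 3.07 CPM, S100a9 went the other way, at 0.253 and 0.993 CPM, and Mpo and Retnlg were at 0. The 4 dendritic cell markers summed to 4.48 to 5.56 CPM and 1.23 to 1.94 CPM, mostly Zbtb46. Their part in the lower levels of the receptors was not tested.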

How the data were processed

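Stranded mRNA libraries of 12 macrophage samples were sequenced as paired reads. Per the submitters' processing notes, bcl2fastq (2.20.0), FastQC (0.11.7), Bowtie2 (2.4.1), GRCm39, featureCounts from Subread (2.0.0), DESeq2 (1.36.0) and R (4.2.1) were used; the gene annotation, the strand setting and the treatment of reads with several matches are not given in the sources used here. The table used holds whole-number counts per gene as deposited by the authors, with no normalization, for 40847 rows, 17090 of them without a count; a second deposited table of normalized values was not used here. Column names were matched to sample titles, and all pairs of replicates differed beyond sampling noise (chi-square over its degrees of freedom at least 9.99).

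The members, gene lists and tests were chosen with earlier results of these data known. Counts were scaled by TMM and fitted in edgeR (4.0.16, R 4.3.3) by the robust quasi-likelihood method over all 12 libraries with 4 group means, after filterByExpr with a minimum count of 10, which left 14749 genes; p-values were adjusted by Benjamini-Hochberg over all of them within each of 5 contrasts, and log2 fold changes are edgeR's. CPM use TMM-scaled totals, and per-length levels divide them by the merged exon length in GENCODE M39. Ratios were tested by exact permutation within strata. All members are named; other pathway genes are named where called and among the 3 largest of their list in the TGFβ effect without Pam3 or in the interaction, and so are the 3 genes most like each member. On simulated counts for 14430 genes, of 200 genes changed by 1 log2 unit in the Pam3+TGFβ group, 164 were recovered for Pam3 with TGFβ, with 15 others called, and 150 in the interaction. Alternatives were other size factors, DESeq2 (1.42.0), other filters, a replicate block, fits of the compared groups alone and each library left out.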

Additional observations from a re-analysis of the deposited data

Results flagged for a closer look

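For 5 members and 10 other pathway genes the Pam3 response with TGFβ differed from that without it by the test of the interaction itself (edgeR, adjusted over all genes tested, of which 15.9% were called, 10.3% positive and 5.67% negative). Without the 5 libraries of high ribosomal share 3 of these members (Tlr2, Cd14 and Tlr7) and 4 of these pathway genes (Myd88, Irak3, Ctsb and Tlr8) were called, with 5.14% of all genes. Of those not called there, Unc93b1 was at 0.30, Tasl at 0.65, Traf3 at 0.38, Ap3b1 at 0.21, Tlr3 at 0.16 and Tmed7 at 0.07. Among the members, the difference in log2 response was 1.3 for Tlr2, 0.93 for Cd14, 0.67 for Tlr7, 0.49 for Tlr3 and 0.26 for Unc93b1. Among the adaptors and kinases it was 0.74 for Myd88, 0.72 for Irak3, 0.44 for Traf3, 0.36 for Traf6 and 0.22 for Pik3ap1. Traf6 and Pik3ap1 were named after their values were seen, outside the rule for named genes, and stood at 0.18 and 0.10 without those 5 libraries (adjusted p 0.547 and 0.705). Among the trafficking genes it was 0.76 for Tasl, 0.3 for Ap3b1 and 0.2 for Tmed7, and it was 0.48 for the protease Ctsb. Tlr8 had the one negative value, -0.34.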

How the results depend on the processing

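Over the 10 members, 5 contrasts and their alternatives, 951 values kept their direction and their side of the threshold, 18 changed sign, 10 gained a call and 11 lost one. No called value changed sign. With single libraries left out, members called by Pam3 without TGFβ numbered 3 to 5 (1965 to 2729 of all genes), and the surface median for Pam3 with TGFβ was 0.28 to 0.71. The responses whose sign changed there, none of them called, were Tlr13 for Pam3 with TGFβ (-0.0047 to 0.12) and the interactions of Tlr1 (-0.37 to 0.065), Tlr4 (-0.058 to 0.081) and Tlr9 (-0.12 to 0.23). Upper-quartile scaling gave -0.0032 for Tlr13 with Pam3 and TGFβ and -0.038 for the Tlr4 interaction.

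Leaving out together the 5 libraries with a high ribosomal share, an alternative chosen after seeing the data that left 1 TGFβ and 1 Pam3 library, assumed to vary like the other groups, gave 1173, 3370 and 802 genes called for Pam3 without TGFβ, Pam3 with TGFβ and the interaction (2697, 5678 and 2352 with all libraries). There, 3 members kept an interaction, the surface median was 1.12 for Pam3 with TGFβ and 0.38 in the interaction, and the endosomal median with TGFβ alone was -0.76. Signs changed for Tlr13 (0.023) and Unc93b1 (-0.018) in the response to Pam3 alone, for Tlr9 (0.08) in that with TGFβ, and for the interactions of Tlr1 (0.38), Tlr4 (-0.15) and Tlr13 (-0.015), with no call in any. Fewer libraries entered that fit.

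Deviations of same-numbered libraries from their group means correlated from -0.174 to 0.3 (18 pairs, median 0.061). Those of other libraries correlated from -0.397 to 0.323 (36 pairs, median -0.058). These ranges overlapped, so whether replicate numbers pair the samples could not be decided from them. A replicate block gave 2751, 5714, 7562, 6736 and 2393 genes called in the order of the contrasts above, Pam3 first, and 5, 5, 9, 10 and 5 members. Among the members, counts were lowest for Tlr1 in libraries with TGFβ and for Tlr9.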
